A study of Mus musculus with 6 samples.

Results

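The genes of major histocompatibility complex (MHC) class I and class II were examined in the hippocampus of L26 and wild type mice on Affymetrix Mouse Genome 430 2.0 arrays. The genes considered were 10: H2-K1, H2-D1, H2-T23, B2m, Tap1, Tapbp, H2-Aa, H2-Ab1, H2-Eb1 and Cd74. Every probe set that the platform annotation assigned to exactly 1 of these symbols was used, which gave 30 of the 45037 probe sets tested and 9 of the 18193 genes represented on the array. H2-T23 has 2 probe sets, both also assigned to another symbol, so no value is given for it. A further 2 probe sets of H2-K1 and 2 of H2-D1 carry several symbols and were not used either.

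The transgenic mice were adult males of L26, a transgenic line homozygous for daDREAM, a dominant active form of DREAM, the calcium-regulated transcriptional repressor encoded by Kcnip3. Their controls were wild type littermates. All animals had a mixed C57B6xCBA background, and each group held 3 arrays that the series describes as independent biological replicates. The promoter that drives the transgene is not given in the sources used here. L26 is a single line, so an effect of daDREAM and an effect of the place where the transgene inserted cannot be told apart. C57BL/6 mice carry MHC haplotype b and CBA mice haplotype k, whose H2 alleles differ in sequence, and the haplotype of each animal is not given.

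Class I molecules display peptides from inside the cell to CD8 T cells. Each is a heavy chain, such as those encoded by H2-K1 and H2-D1, bound to the light chain beta-2 microglobulin. The Tap1 and Tap2 proteins carry peptides into the endoplasmic reticulum, where tapasin, the product of Tapbp, helps to load them. Class II molecules are pairs of an alpha and a beta chain that display peptides from taken-up proteins to CD4 T cells, and the invariant chain Cd74 guides them through the cell. In brain tissue class II is found mainly on microglia, border macrophages and other immune cells, whereas class I is also made by endothelial cells and by some neurons.

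Upstream sequences of 4 members are printed, chosen by the results described below. The heavy chain genes gave increases, while their light chain gene B2m and the class II gene H2-Eb1 did not pass the test. The H2-Eb1 difference of 0.30 still lay between those of the called H2-D1 probe sets (0.33 and 0.27). The sequences come from the RefSeq table for GRCm38.p6, in which windows of 8 of the 10 members were searched. H2-Ab1 and Cd74 were not searched, so the motif matches given below do not cover them. Each is the 250 bases before an annotated start, read on the gene's own strand. They are chr17:34000348-34000597 (minus strand) for H2-K1, chr17:35262844-35263093 (plus) for H2-D1, chr2:122147437-122147686 (plus) for B2m and chr17:34305617-34305866 (plus) for H2-Eb1. Capitals mark matches on either strand to the kappaB motif of the class I enhancer (GGGATTCCC), to spaced forms of the interferon-stimulated element (GAANNGAAA and GAAANNGAA) and to the class II X2 and Y boxes (TGACGTCA and CTGATTGG).
H2-K1: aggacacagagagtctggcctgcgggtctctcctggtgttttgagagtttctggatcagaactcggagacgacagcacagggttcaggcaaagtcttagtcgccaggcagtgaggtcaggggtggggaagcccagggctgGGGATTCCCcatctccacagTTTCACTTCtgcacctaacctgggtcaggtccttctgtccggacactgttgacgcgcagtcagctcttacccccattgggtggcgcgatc
H2-D1: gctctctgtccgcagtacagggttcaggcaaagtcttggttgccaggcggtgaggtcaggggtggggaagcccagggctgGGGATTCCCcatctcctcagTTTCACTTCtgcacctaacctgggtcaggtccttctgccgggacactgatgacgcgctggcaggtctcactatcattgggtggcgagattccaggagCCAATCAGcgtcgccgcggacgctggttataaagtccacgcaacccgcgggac
B2m: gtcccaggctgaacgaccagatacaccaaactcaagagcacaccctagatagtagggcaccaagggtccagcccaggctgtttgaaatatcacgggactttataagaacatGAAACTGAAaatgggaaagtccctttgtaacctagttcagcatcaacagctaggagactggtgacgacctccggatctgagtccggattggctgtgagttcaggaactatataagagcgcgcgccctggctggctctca
H2-Eb1: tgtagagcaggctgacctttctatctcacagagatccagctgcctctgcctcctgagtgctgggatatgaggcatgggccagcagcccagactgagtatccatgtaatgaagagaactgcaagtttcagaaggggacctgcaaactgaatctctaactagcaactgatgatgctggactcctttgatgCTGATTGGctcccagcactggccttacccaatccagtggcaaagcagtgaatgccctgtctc

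The windows of H2-K1 and H2-D1 shared a similar stretch, in which a local alignment gave 166 of 188 positions identical (88.3%), and the rest of each 250-base window was not aligned. Both held the kappaB motif, 110 to 102 bases before the start in H2-K1 and 170 to 162 bases before it in H2-D1. Among 32851 promoter windows of the same length, 99 (0.301%) had this motif. Both also held the element GAANNGAAA, which 6.31% of all windows have. B2m held GAAANNGAA, 139 to 131 bases before its start (7.13% of windows). The Y box, found in 3.83% of windows, was present in H2-Eb1, in H2-Aa and, on the opposite strand, in H2-D1, H2-T23 and Tap1. The H2-K1 window ends, at its annotated start, short of the stretch that holds this box in H2-D1, so that stretch was not searched in H2-K1. The X2 box, found in 1.55% of windows, was present in H2-Aa, where it began 74 bases before the start. These letters describe the C57BL/6 reference, and the alleles of the mice were not read. Whether any of these motifs bears on the expression differences was not tested.

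The data are log2 expression values made with RMA, which adjusts the arrays to each other. A difference of 1 is a doubling. Array medians lay between 7.27 and 7.32, and the lower quartile of mean levels was 5.95. RMA gives no detection calls, so a value near or below that quartile may hold little specific signal. All 15 measured markers of hippocampal neurons, such as Prox1 and Neurod6, had mean levels above 7.30, the median over all probe sets. In a limma fit over all probe sets 1764 of 45037 (3.92%) differed between L26 and wild type at an adjusted p under 0.05 (Benjamini-Hochberg). Of these 892 (1.98%) were higher and 872 (1.94%) lower, or 717 and 1149 when each array was centred on its median.

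In L26 hippocampus both classical class I heavy chain genes were higher on part of their probe sets, and no other member passed the test. H2-K1 rose by up to 1.66-fold and H2-D1 by up to 1.26-fold. Of the 30 member probe sets 4 (13.3%) rose, 0 fell and 26 did not pass, beside the 3.92% of all probe sets. By unadjusted p under 0.05, 11 of the 30 differed, beside 18.1% of all probe sets. The median difference over the 30 was 0.085 on the log2 scale, with a range from -0.51 to 0.73. The 3 L26 arrays all lay above the 3 wild type arrays in 9 of the 30 probe sets, and all below in 1. Over all probe sets these shares were 12.5% and 9.32%. All 4 probe sets that rose end in _x_at, the suffix of designs open to related transcripts, and H2-K1 has no other kind. With such designs left out, 0 of the remaining 12 member probe sets passed.

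H2-K1 encodes the K heavy chain, and its probe set 1425336_x_at gave the highest difference of all members. It read 9.59, 9.47 and 9.45 in the L26 arrays, against 8.63, 8.91 and 8.78 in the wild type arrays. The lowest L26 array was thus well above the highest wild type array. The means were 9.50 ± 0.08 in L26 and 8.77 ± 0.14 in wild type (SD, n = 3 each), a difference of 0.73 (SE 0.08, adjusted p = 0.00116 in limma). This call held under all 12 alternatives in which the probe set was tested, with differences from 0.66 to 0.80. Among these, the looser threshold of 0.1 could not have ended it. In whole tissue, more cells of a type that make this transcript and more of it in each cell cannot be told apart.

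A second H2-K1 probe set, 1451931_x_at, read 9.10, 9.27 and 9.0 in L26 and 8.73, 8.71 and 8.68 in wild type. The groups did not overlap here either, and the wild type arrays lay close together. Its difference was 0.42 (SE 0.07, adjusted p = 0.0147 in limma), a 1.33-fold higher level in L26. Without wild type replicate 3 the adjusted p was 0.055.

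The remaining H2-K1 probe sets gave overlapping groups. Probe set 1427746_x_at read 7.23, 7.07 and 7.11 in L26 and 6.93, 7.34 and 6.91 in wild type, where replicate 2 was the highest array of all. Its difference was 0.08, with a 95% interval from -0.17 to 0.32. For 1450534_x_at the values were 7.12, 6.86 and 6.78 in L26 and 6.97, 6.66 and 6.68 in wild type, a difference of 0.15 (95% interval from -0.09 to 0.39). The interval of each of these lies wholly below that of 1425336_x_at, which ran from 0.55 to 0.91. All 4 H2-K1 probe sets had a higher mean in L26.

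H2-D1 encodes the D heavy chain and has 9 probe sets, of which 2 rose and 7 did not pass (3.92% of all probe sets passed). They were read on the same arrays, so they are not separate observations. Probe set 1451784_x_at read 9.61, 9.63 and 9.45 in L26 and 9.16, 9.35 and 9.18 in wild type. All L26 arrays were above all wild type arrays, by 0.33 in the mean (SE 0.07, adjusted p = 0.0415 in limma). That call was lost without L26 replicate 1, 2 or 3 (adjusted p = 0.108, 0.142 and 0.0542 in limma) and without wild type replicate 1 or 3 (adjusted p = 0.121 and 0.118). With arrays centred on their medians the adjusted p was 0.0607.

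Probe set 1451683_x_at of H2-D1 read 6.68, 6.73 and 6.58 in L26 and 6.39, 6.41 and 6.37 in wild type. The groups were apart, and the difference was 0.27 (SE 0.06, adjusted p = 0.0365 in limma). Leaving out any 1 of the 6 arrays ended this call, with adjusted p-values from 0.0533 (without L26 replicate 3) to 0.131 (without L26 replicate 2). It also ended with centred arrays (0.0607), with a repeated quantile normalization (0.0543) and with an intensity trend and robust prior (0.055).

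Of the other H2-D1 probe sets, 4 also had every L26 array above every wild type array without passing (12.5% of all probe sets, called or not, lay so). The brightest, 1425545_x_at, read 9.86, 9.65 and 9.51 in L26 and 9.29, 9.40 and 9.18 in wild type, a difference of 0.38 (SE 0.09, adjusted p = 0.0584). It passed once the dimmest 40% of probe sets were removed (adjusted p = 0.0457) and with the intensity trend and robust prior (0.0236). Probe set 1452544_x_at read 7.32, 7.30 and 7.05 in L26 and 6.96, 6.94 and 6.94 in wild type, a difference of 0.28 (SE 0.08, adjusted p = 0.0872, or 0.0282 without L26 replicate 3). The other two, 1426324_at and 1451934_at, are the only H2-D1 designs here without an _x_at ending. They had differences of 0.19 (SE 0.07, adjusted p = 0.186) and 0.22 (SE 0.07, adjusted p = 0.115), and the level of 1451934_at was below the lower quartile.

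One H2-D1 probe set ran the other way. Probe set 1450170_x_at read 6.48, 6.23 and 6.80 in L26 and 7.04, 7.14 and 6.87 in wild type. Every L26 array lay below every wild type array, although L26 replicate 3 and wild type replicate 3 were only a little apart. The difference of -0.51 (SE 0.13) had an adjusted p of 0.0667 in limma. It passed without L26 replicate 3 (-0.66, adjusted p = 0.0224) and with the intensity trend and robust prior (adjusted p = 0.0378). The last H2-D1 probe sets, 1427651_x_at and 1425614_x_at, had overlapping groups and differences of -0.02 and -0.06.

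**Figure D1:**
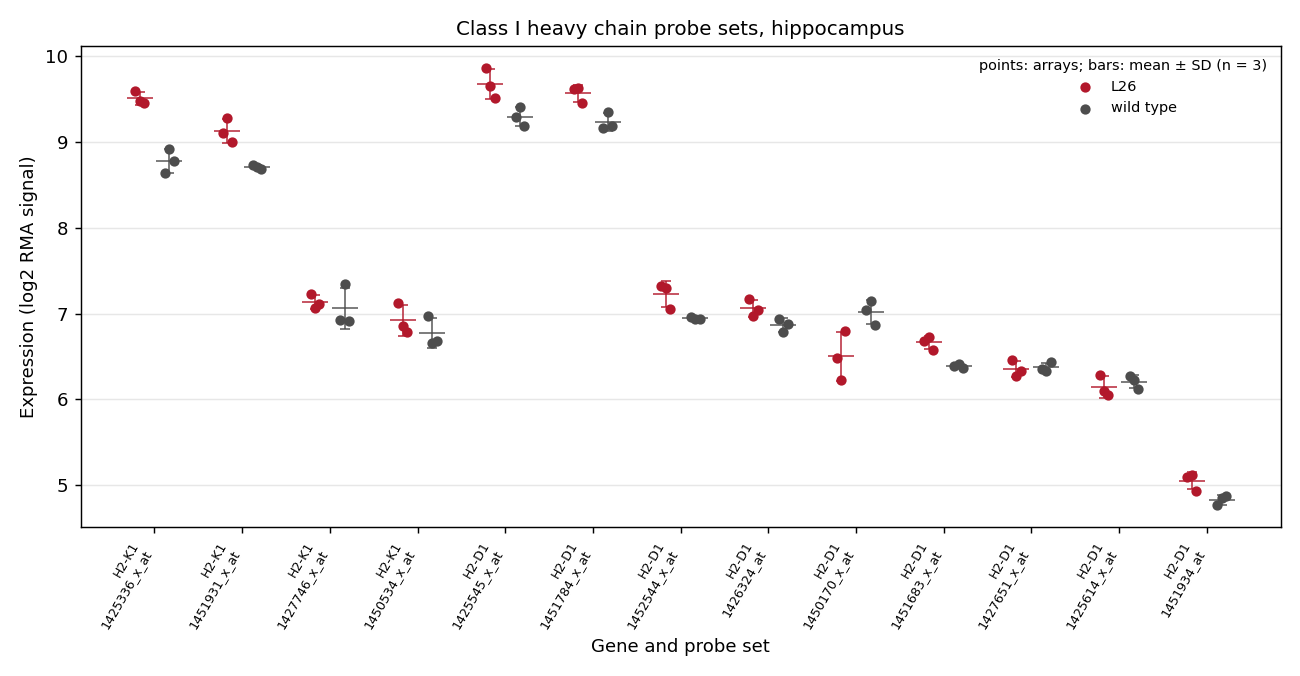
Expression (log2 RMA signal, vertical axis) of the 4 H2-K1 and 9 H2-D1 probe sets (horizontal axis) in the 3 L26 arrays (red) and 3 wild type arrays (grey), with the mean and SD of each group. L26 lies above wild type without overlap in 8 of the 13 probe sets and below it in 1, 1450170_x_at of H2-D1. Over all probe sets these shares were 12.5% and 9.32%. Of the 13, 11 end in _x_at, and all were read on the same arrays, so they are not separate observations.

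Because alleles and related transcripts can hit probe sets of 1 gene differently, each was also set against the brightest probe set of its gene within each array. There were 21 such pairs over 7 genes, and with 3 arrays in each group an exact permutation test cannot go below p = 0.1. For H2-D1, the log2 ratio of 1450170_x_at to 1425545_x_at averaged -3.17 ± 0.40 in L26 and -2.27 ± 0.03 in wild type (SD, n = 3 each). This ratio was 0.90 lower in L26 with no overlap (exact permutation p = 0.1, two-sided, 0.3 adjusted over the 21 pairs). For H2-K1, the ratio of 1427746_x_at to 1425336_x_at was 0.65 lower in L26 and that of 1450534_x_at 0.58 lower, both with the same p-values. In all, 7 of the 21 ratios were lower in L26 with no overlap, 0 were higher with no overlap and 14 had overlapping groups. The other 4 of the 7 were H2-D1 1427651_x_at (-0.40) and 1425614_x_at (-0.44), H2-Aa 1452431_s_at (-0.28) and H2-Ab1 1425477_x_at (-0.12), each also at p = 0.1 by the exact permutation test (0.3 adjusted). Pairs of 1 gene share a reference, so a rise of the reference alone lowers its ratios. H2-D1 1427651_x_at and 1425614_x_at themselves differed by -0.02 and -0.06, while their reference 1425545_x_at differed by 0.38. Such ratios were not counted over other genes, so no background share is given. The part that H2 alleles have in the disagreement between probe sets was not tested.

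The genes that act with the heavy chains gave no call. B2m, the light chain gene, read 11.27, 11.02 and 11.29 in L26 and 11.07, 11.25 and 11.15 in wild type on probe set 1449289_a_at. The wild type arrays lay between the lowest and the highest L26 array, so the groups overlapped, and the difference was 0.04 (95% interval from -0.15 to 0.23). Its other probe set, 1452428_a_at, differed by 0.07 (95% interval from -0.09 to 0.23). Both intervals lie below that of H2-K1 probe set 1425336_x_at.

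Tap1, a subunit of the peptide transporter, read 7.67, 7.58 and 7.32 in L26 and 7.76, 7.43 and 7.57 in wild type on 1416016_at. Its 4 probe sets had differences from -0.06 to 0.06, all with overlapping groups, and 2 of them had levels below the lower quartile. Tapbp read 9.08, 9.0 and 9.26 in L26 and 9.03, 9.15 and 9.16 in wild type on 1421812_at, with equal means. The 95% interval of that difference ran from -0.17 to 0.17. Its second probe set, 1450378_at, differed by 0.02. Of these 8 probe sets of B2m, Tap1 and Tapbp, 0 passed in limma, 0 had an unadjusted p under 0.05 and 0 had groups that did not overlap. Over all probe sets 3.92% passed and 18.1% had such an unadjusted p, while 12.5% lay wholly above and 9.32% wholly below. With only 8 probe sets, counts of 0 do not show an absence of change.

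Class II genes had higher means in L26 on most probe sets, without a call. Of the 9 probe sets of H2-Aa, H2-Ab1, H2-Eb1 and Cd74, 8 had a higher mean, 0 passed in limma and 2 had an unadjusted p under 0.05 (18.1% of all probe sets did). Their median difference was 0.11. Among all genes by their brightest probe set, 9653 of 18193 had a higher mean. H2-Aa gave 4 and H2-Ab1 3 of the 9 probe sets, read on the same arrays, so these are not separate observations. H2-Eb1, a beta chain gene with 1 probe set, read 7.56, 7.53 and 7.63 in L26 and 7.45, 7.17 and 7.19 in wild type. All L26 arrays were above all wild type arrays, with wild type replicate 1 closest to them. The difference was 0.30 (SE 0.08, adjusted p = 0.0769 in limma). Without wild type replicate 1 it was 0.39 and passed (adjusted p = 0.0178).

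Cd74, the invariant chain gene, read 8.27, 8.11 and 8.36 in L26 and 8.06, 8.13 and 7.96 in wild type. L26 replicate 2 lay among the wild type arrays, and the difference of 0.20 (SE 0.08) did not pass (adjusted p = 0.217). H2-Aa, the alpha chain gene, varied most within L26, with 6.71, 6.43 and 7.20 in L26 and 6.31, 6.39 and 6.56 in wild type on 1435290_x_at. Its difference there was 0.36 (95% interval from -0.01 to 0.73), and 0.15 without L26 replicate 3. The other 3 H2-Aa probe sets differed by 0.08, 0.11 and 0.09 on 1452431_s_at, 1438858_x_at and 1443783_x_at, all with overlapping groups.

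H2-Ab1, the partner beta chain gene of H2-Aa, read 6.98, 6.84 and 7.05 in L26 and 6.74, 6.89 and 6.79 in wild type on 1450648_s_at. There the groups overlapped at L26 replicate 2, with a difference of 0.15 (95% interval from -0.01 to 0.31). Its probe sets 1451721_a_at and 1425477_x_at differed by -0.02 and 0.03.

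**Figure D2:**
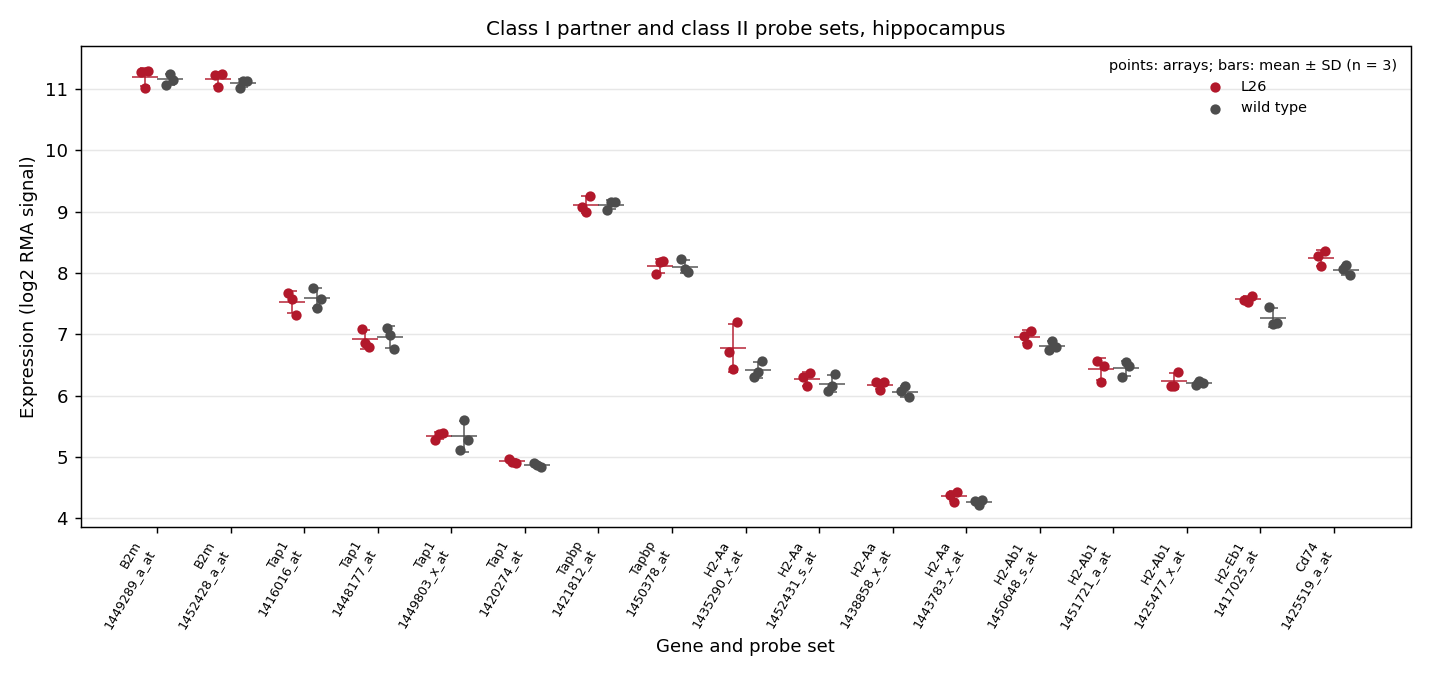
Expression (log2 RMA signal, vertical axis) of the 17 probe sets of B2m, Tap1, Tapbp, H2-Aa, H2-Ab1, H2-Eb1 and Cd74 (horizontal axis) in the 3 L26 arrays (red) and 3 wild type arrays (grey), with the mean and SD of each group. H2-Eb1 is the 1 probe set of these whose groups do not overlap, and the groups overlap on both probe sets of B2m. Over all probe sets, L26 lay wholly above in 12.5% and wholly below in 9.32%.

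**Figure D3:**
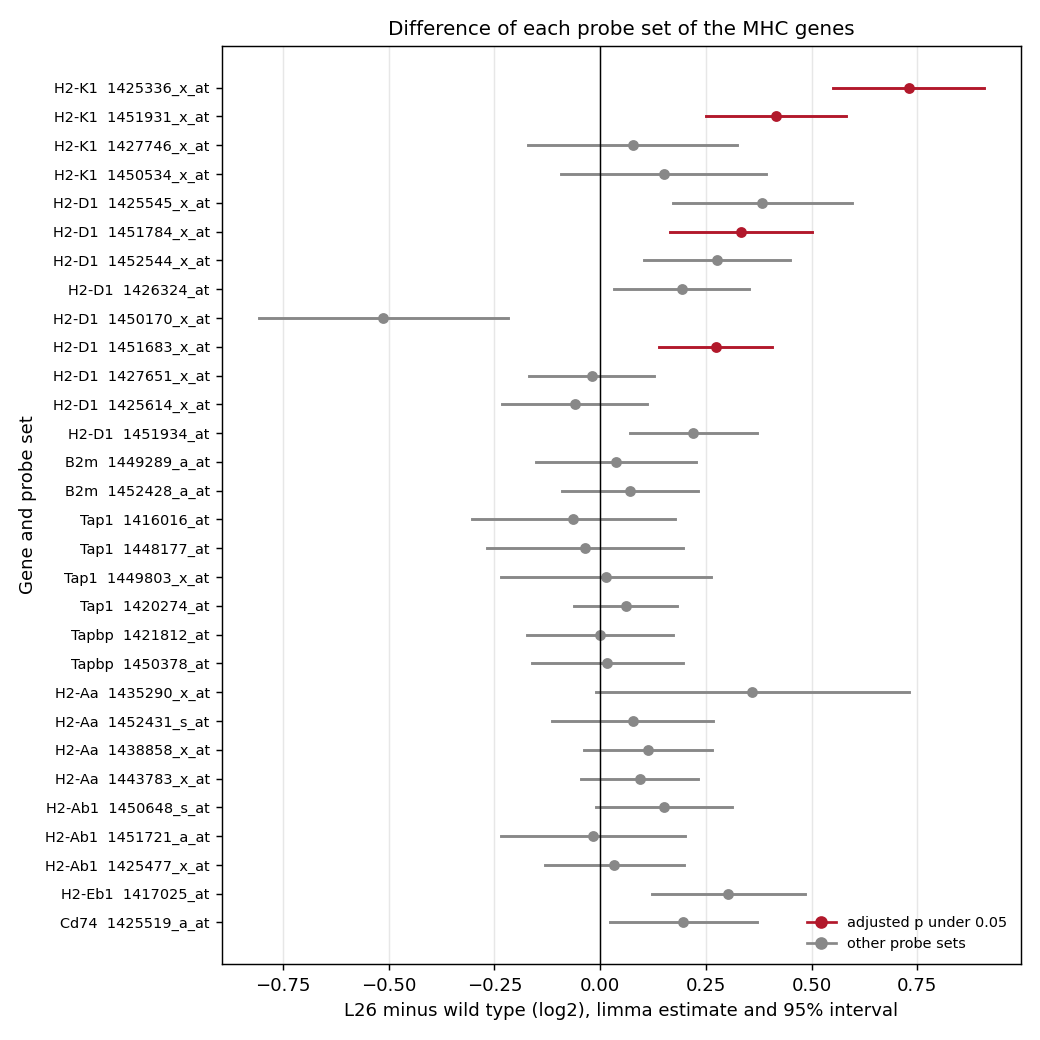
Difference between L26 and wild type (log2, horizontal axis) for each of the 30 probe sets (vertical axis), with the 95% interval of the limma fit. The 4 probe sets past the threshold (red) belong to H2-K1 and H2-D1, and the interval of H2-D1 probe set 1450170_x_at lies wholly below 0.

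Genes that act upstream of or beside these members were described through lists, each gene by its brightest probe set. Among all 18193 genes so represented, 4.25% passed, 9653 had a higher mean and the median difference was 0.01. Of 10 measured genes of class I processing and loading, 0 passed in limma, with a median of 0.01. Psmb10, an immunoproteasome subunit gene, read 10.08, 9.99 and 10.01 in L26 and 10.27, 10.25 and 10.25 in wild type, a difference of -0.23 (adjusted p = 0.051). Calr, the gene of the chaperone calreticulin, had 0.23 (adjusted p = 0.0661). Nlrc5, which encodes the main transactivator of class I genes, differed by 0.04 at a level below the lower quartile, and Psmb8, another immunoproteasome gene, by -0.02.

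Of 8 other class I genes measured, 0 passed in limma and 7 had a higher mean, with a median difference of 0.09. H2-Q5, a class I gene outside that list and the second measured gene after H2-D1, read 6.11, 5.99 and 6.0 in L26 and 6.34, 6.31 and 6.18 in wild type on 1450582_at. Every L26 array was below every wild type array there (difference -0.24, SE 0.07, adjusted p = 0.0797 in limma), while its dimmer probe set 1430802_at had equal means. Of 17 further genes of the class II pathway, 0 passed in limma and 9 had a higher mean, with a median of 0.01. Every L26 array lay above every wild type array for Ifi30 (0.30, adjusted p = 0.0827 in limma), H2-Eb2 (0.17), H2-DMa (0.15), Cd86 (0.14) and H2-Ea (0.11). For Rfx5 every L26 array lay below (-0.16). Over all probe sets, 12.5% lay wholly above and 9.32% wholly below. Ciita, which encodes the master regulator of class II transcription, differed by -0.04 on its brightest probe set (adjusted p = 0.883). H2-Ea, the alpha chain gene that pairs with H2-Eb1, is not made in haplotype b and is made in haplotype k. On 1422891_at H2-Ea read 8.77, 8.70 and 8.76 in L26 and 8.59, 8.65 and 8.65 in wild type, a difference of 0.11 (adjusted p = 0.318). The other H2-Ea probe sets, 1422892_s_at and 1426202_at, had levels below the lower quartile in both groups and differences of 0.03 and -0.02.

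Interferons are the classical inducers of MHC genes. Of 33 measured interferon response genes 1 rose, 0 fell and 32 did not pass (3.92% of all probe sets and 4.25% of all genes did), with a median of 0.04. The mean was higher in L26 for 24 of the 33. The gene that rose was Ifi35, an interferon-induced gene, at 7.79, 7.80 and 7.77 in L26 and 7.50, 7.52 and 7.60 in wild type (difference 0.25, SE 0.06, adjusted p = 0.0412 in limma). Leaving out any 1 of the 6 arrays ended that call (adjusted p = 0.0572 to 0.131), and its other 2 probe sets had overlapping groups. Irf1, a transcription factor gene that acts on class I promoters, differed by 0.03 (adjusted p = 0.893 in limma). Of the others that did not pass, Gbp7 differed by 0.34 and Ifit3, both interferon-induced, by -0.28 (adjusted p = 0.0677 and 0.0835 in limma). Of 4 genes for receptors and partners of class I at synapses, 0 passed in limma.

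Except for B2m and Cd74, the members lie in the MHC region of chromosome 17. Of 67 other measured genes listed from that region 3 rose and 1 fell, with a median difference of 0.02. Vps52, of a vesicle tethering complex, rose by 0.34 (SE 0.06, adjusted p = 0.0144) on 1447894_x_at and had 0.18 on its other probe set. Ddr1, a collagen receptor gene, rose by 0.30 (adjusted p = 0.0183) on 1456226_x_at and the myelin gene Mog by 0.47 (adjusted p = 0.0439). Ddr1 also passed on 1435820_x_at (0.27, adjusted p = 0.027 in limma) and 1415797_at (0.29, adjusted p = 0.0257 in limma). Its remaining probe sets had higher means without passing. Ier3, an immediate early response gene, was the 1 that fell, by 0.38 (adjusted p = 0.0252). The Vps52 call was lost without L26 replicate 3 (adjusted p = 0.071). Those of Ddr1 on 1456226_x_at and of Ier3 were each lost without L26 replicate 1 or 2 or wild type replicate 2 or 3 (adjusted p up to 0.0799 and 0.0987). The other Ddr1 probe sets were not refitted in this way. That of Mog was lost without any array except L26 replicate 1 (adjusted p up to 0.14). In the RefSeq gene order, 1 of the 20 nearest measured genes around H2-K1 rose (Vps52, the second gene before it) and 0 of the 20 around H2-D1 passed, with medians of 0.01 and 0.005.

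Markers of cells that carry MHC molecules were measured on the same arrays. Of 10 endothelial markers 5 rose and 0 fell, with a median difference of 0.36. Their summed linear signal ranged from 4582 to 4974 over the L26 arrays and from 3537 to 3575 over the wild type arrays. Cldn5, a tight junction gene, rose by 0.95 and Kdr, an endothelial receptor gene, by 0.63 (adjusted p = 0.000286 and 0.00208 in limma). Of 8 markers of pericytes and vascular muscle 4 rose and 0 fell, with summed signals from 7137 to 7801 in L26 and from 5468 to 5585 in wild type. None of these 18 vascular markers had a level below the lower quartile.

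Of 13 microglia markers 3 rose (Fcrls by 0.55, C1qc by 0.40 and C1qb by 0.29) and 1 fell (P2ry12, by 0.30), with a median of 0.03. Of the 13, 7 had a higher mean. Their summed signal ranged from 12185 to 12483 in L26 and from 10852 to 11624 in wild type. Csf1r, the brightest of them, weighs most in this sum and did not pass (difference 0.22, adjusted p = 0.0653 in limma). Of 11 markers of border macrophages, monocytes and dendritic cells 0 passed in limma. All 11 had a higher mean, by 0.10 in the median (9653 of all 18193 genes had a higher mean). Their summed signals ran from 1510 to 1601 in L26 and from 1381 to 1508 in wild type, with 2 markers below the lower quartile. Of 9 T and NK cell markers and 6 B and plasma cell markers 0 passed in limma, and 4 and 2 of them had levels below the lower quartile. Their summed signals were 987 to 1008 and 657 to 816 in L26, against 908 to 955 and 700 to 733 in wild type. Oligodendrocyte markers rose for 6 of 8, beside 5 of the 15 neuron markers, 2 of 9 leptomeningeal markers and 2 of 9 of choroid plexus and ependyma, while S100b was the 1 of 7 astrocyte markers that fell and 0 of 6 blood markers passed in limma. The part of vascular, microglial or other immune cells in the H2-K1 and H2-D1 differences was not tested.

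**Figure D4:**
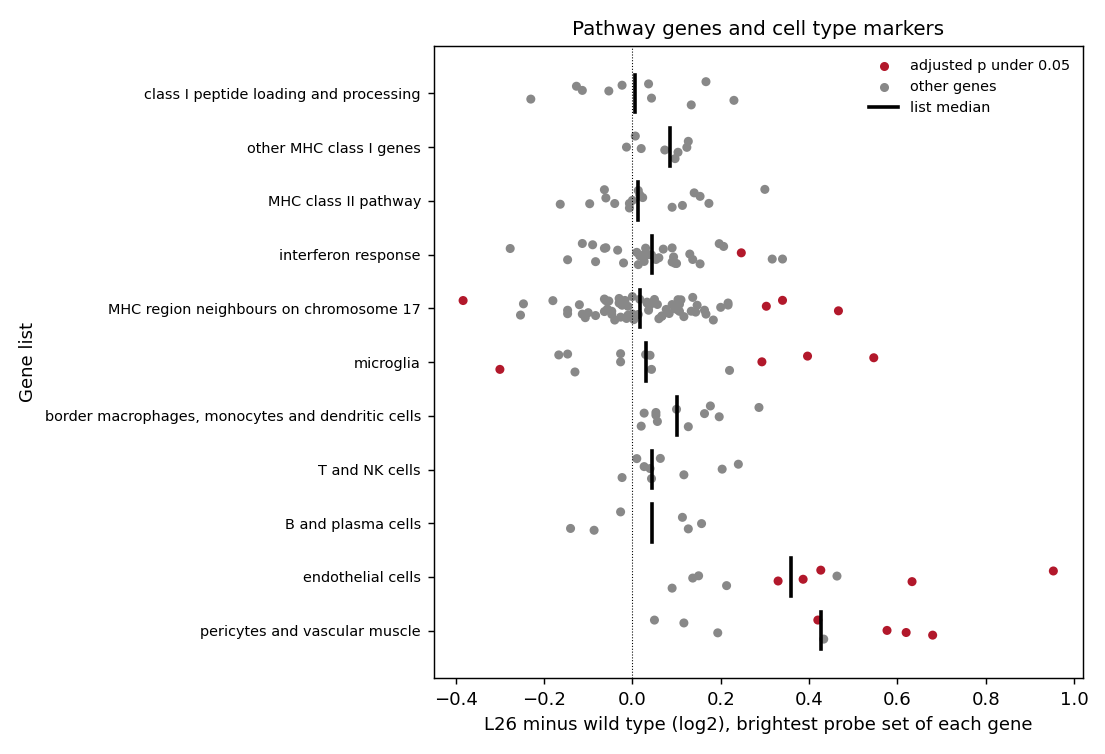
Difference between L26 and wild type (log2, horizontal axis) of each gene in 5 lists of pathway and region genes and 6 lists of cell type markers (vertical axis), 1 point per gene. The median (black bar) of endothelial markers lies at 0.36, and those of the interferon response, class II pathway and class I processing genes lie at 0.04 or below.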

How the data were processed

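Hippocampal RNA of 3 L26 and 3 wild type mice was hybridised to 1 array each. The authors deposited log2 values per probe set, made with RMA and the affy package per the submitters' processing notes, with versions not given in the sources used here. The precision is limited by the small number of arrays, since no read depth applies. Leaving out 64 array controls, 45037 probe sets were fitted in R 4.3.3 using limma 3.58.1 (functions lmFit, then eBayes; wild type subtracted from L26; no filter on level; Benjamini-Hochberg adjustment; threshold 0.05). Names came from the platform annotation, which can be old: 34945 probe sets had 1 symbol, 932 several and 9160 none. Of the per-sample columns, 0 were left unused.

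For context lists, the brightest probe set (mean of all 6 arrays) stood for its gene. Every member probe set was named, with up to 4 genes past the threshold with the smallest p from each context list and from the cell type lists discussed, and H2-Ea, Ciita, Nlrc5, Irf1 and Psmb8. C4b, also fixed for naming, had no probe set with that symbol alone. Psmb10, Calr, Gbp7, Ifit3, H2-Q5, Ifi30, H2-Eb2, H2-DMa, Cd86, Rfx5 and Csf1r were added after their values were seen, as were the motifs and the neighbour counts. The members and lists were chosen with earlier results of these data known. Summed signals add 2 to the power of each log2 value. Promoters were aligned locally with Biopython 1.88. Alternatives were a replicate block, each array left out, repeated quantile normalization, median centring, an eBayes prior that was robust and followed intensity, removal of the dimmest 40% or of _x_at and _s_at probe sets, and a threshold of 0.1. The code was tested on simulated data.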

Additional observations from a re-analysis of the deposited data

How the results depend on the processing

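Replicate numbers are shared between the groups. Deviations of same-numbered arrays correlated at r = -0.0379, -0.0702 and 0.154 over probe sets, and those of differently numbered arrays at -0.153 to 0.188. So few arrays cannot show whether the numbers mark shared handling, and the main fit did not use them. With the replicate block 3 member probe sets were higher and 0 lower, H2-D1 1451683_x_at missing the threshold (adjusted p = 0.0651), and all probe sets gave 645 higher and 685 lower. Over the 6 settings without 1 array, 1 to 3 member probe sets were higher (1 without wild type replicate 3, 2 without L26 replicate 1 or 2) and 0 or 1 lower. The same settings gave 356 to 787 higher and 454 to 661 lower over all probe sets, and 1 to 4 of the 136 context genes past the threshold, against 5 with all arrays. Median centring left 2 member probe sets higher. The intensity trend with a robust prior added 1 lower, 1450170_x_at of H2-D1. At a threshold of 0.1, 7 member probe sets were higher and 1 lower, all probe sets gave 1725 and 1442, and 13 context genes passed. Without _x_at and _s_at designs 0 of 12 member probe sets were higher and 3 of 117 context genes passed. The median member difference lay between 0.05 and 0.15 under the 13 alternatives. No called member changed sign, while 8 uncalled member probe sets did so under at least 1 alternative. Tapbp 1421812_at, with a difference of 0 in all arrays, took either sign and is not counted among them. The causes of these changes were not tested beyond the smaller numbers of arrays or probe sets.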
